A study of Mus musculus with 4 samples.

Results

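The acute phase genes examined here are Saa1, Saa2, Saa3, Lcn2, Hp, Hpx, Orm1, Orm2, Serpina3n and Fgb, 10 of the 23282 gene rows measured in mouse gastrocnemius muscle. They were chosen by name, with earlier results of these libraries already known, so every difference between libraries given for them is a description and not a test. Alb and Apoa1, the genes of albumin and apolipoprotein A-I, served as controls for RNA of liver origin. Polyadenylated RNA was profiled by 3′ mRNA sequencing (QuantSeq), which reads the ends of transcripts, so that levels are compared between libraries for 1 gene and not between genes. The 4 libraries came from male CDF1 mice labelled as postnatal day 28, which is the age at purchase in the study's methods and not that at sampling, 1 library for each combination of exercise (E) and tumor (T). The normal control E(-)T(-) had neither, the normal exercise group E(+)T(-) ran on a treadmill at high intensity, the cancer control E(-)T(+) received CT26 murine colorectal cancer cells through the tail vein, and the cancer exercise group E(+)T(+) had both. The design text names 10 mice per group, whereas the study describes a representative mouse for sequencing, and which of these a library holds was not settled here. A tumor seeded from the tail vein is a model of cells spread through the blood. The study reports that it saw no tumor growing in this muscle of the cancer exercise mouse. Whether tumor cells had reached the sequenced muscles was not tested here.

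The acute phase response is the change in blood proteins that follows infection, injury or a growing tumor. Cytokines such as interleukin-6, interleukin-1 and tumor necrosis factor reach hepatocytes, where STAT3, the C/EBP factors and NF-kB switch on the positive acute phase genes, helped by glucocorticoids, while albumin and several transport proteins go down. Serum amyloid A proteins travel on lipoproteins, lipocalin 2 takes iron-loaded siderophores away from bacteria, haptoglobin and hemopexin bind free hemoglobin and heme, orosomucoids carry small ligands, Serpina3n inhibits serine proteases and fibrinogen forms the clot. Several of these genes are also transcribed outside the liver, Saa3 and Lcn2 in macrophages, neutrophils and epithelia and Hp in fat, so their transcripts in a dissected muscle can come from more than 1 cell type.

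On the GRCm38 (mm10) assembly, the build given in the labels, 3 of the genes lie in a cluster on chromosome 7, with Saa4 between Saa3 and Saa1. Saa3 spans chr7:46711998-46715700 and Saa1 spans chr7:46740497-46742980, both on the minus strand, and Saa2 spans chr7:46751790-46754313 on the plus strand. Each has 4 exons in its first GENCODE M21 transcript. Hpx lies farther along the same chromosome at chr7:105591613-105600137 on the minus strand, with 10 exons. Orm1 (chr4:63344560-63348163) and Orm2 (chr4:63362449-63365878) are 6-exon neighbours on the plus strand with Orm3 between them. Lcn2 is at chr2:32384633-32388252 (minus strand, 6 exons), Fgb at chr3:83040141-83049863 (minus strand, 8 exons), Hp at chr8:109575128-109579172 (minus strand, 5 exons) and Serpina3n at chr12:104406729-104414329 (plus strand, 5 exons). None of the 10 genes overlaps another annotated gene in GENCODE M21.

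Promoter sequences were read from a RefSeq table on GRCm38.p6, which matched 8 of the 10 genes, all but Hp and Orm1. The table gives 250 bases before and 50 bases after the start site. The 250 bases before it are printed 5′ to 3′ on the strand of the gene for the serum amyloid A genes, which share a cluster, and for Lcn2, Serpina3n and Fgb, which like these were called higher with a tumor both with and without exercise. Capitals mark matches, on either strand, to simple motifs of the factors named above, TTCNNNGAA for STAT, TTGCNNAA for C/EBP, GGANNTTCC for NF-kB and ACANNNTGT for the glucocorticoid receptor.
Saa1: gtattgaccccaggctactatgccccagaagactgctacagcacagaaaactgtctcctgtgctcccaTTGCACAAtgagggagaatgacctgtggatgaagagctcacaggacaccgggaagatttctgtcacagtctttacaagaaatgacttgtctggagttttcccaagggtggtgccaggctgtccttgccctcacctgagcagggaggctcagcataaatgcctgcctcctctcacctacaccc
Saa2: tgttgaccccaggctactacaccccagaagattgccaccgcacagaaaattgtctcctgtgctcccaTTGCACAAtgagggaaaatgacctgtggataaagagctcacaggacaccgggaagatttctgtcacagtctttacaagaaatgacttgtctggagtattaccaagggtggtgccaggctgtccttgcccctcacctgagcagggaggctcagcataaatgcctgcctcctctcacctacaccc
Saa3: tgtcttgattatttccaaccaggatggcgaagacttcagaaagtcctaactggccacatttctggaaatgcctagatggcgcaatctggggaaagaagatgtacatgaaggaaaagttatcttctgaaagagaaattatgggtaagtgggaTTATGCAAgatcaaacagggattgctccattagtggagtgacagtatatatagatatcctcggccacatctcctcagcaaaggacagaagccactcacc
Lcn2: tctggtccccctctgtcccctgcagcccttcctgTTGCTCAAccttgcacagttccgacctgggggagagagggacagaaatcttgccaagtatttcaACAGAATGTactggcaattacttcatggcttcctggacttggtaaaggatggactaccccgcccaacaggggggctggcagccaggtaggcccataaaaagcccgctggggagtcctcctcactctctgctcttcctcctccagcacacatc
Serpina3n: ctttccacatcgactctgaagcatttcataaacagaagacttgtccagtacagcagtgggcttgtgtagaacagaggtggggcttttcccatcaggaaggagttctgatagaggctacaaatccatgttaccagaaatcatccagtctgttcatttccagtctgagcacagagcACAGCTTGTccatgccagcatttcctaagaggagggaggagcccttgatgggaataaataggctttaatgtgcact
Fgb: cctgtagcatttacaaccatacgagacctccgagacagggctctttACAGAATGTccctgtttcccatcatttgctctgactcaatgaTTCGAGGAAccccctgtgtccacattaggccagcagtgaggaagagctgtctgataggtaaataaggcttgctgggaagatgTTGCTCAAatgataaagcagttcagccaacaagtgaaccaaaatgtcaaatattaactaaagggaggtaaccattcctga

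These promoters lie at chr7:46742981-46743230 (minus strand), chr7:46751583-46751832 (plus), chr7:46715677-46715926 (minus), chr2:32387740-32387989 (minus), chr12:104406458-104406707 (plus) and chr3:83049864-83050113 (minus). They are set by RefSeq start sites, which for some genes differ from the ends of the GENCODE spans given above. The Lcn2 window lies wholly within the Lcn2 span, and the Saa2 and Saa3 windows overlap the spans of their genes. The Saa1 and Saa2 promoters were nearly the same sequence, with 238 identical bases, 11 mismatches and 2 gap positions in a global alignment, an identity of 94.8%, and the C/EBP letters sat at the same place in both. The Saa3 promoter had an identity of 48.5% with that of Saa1. The C/EBP letters were found in 7 of the 8 promoters, all but that of Serpina3n, while 10.8% of the 32851 promoters in the table hold them. The glucocorticoid receptor letters were in 3 of 8 (Lcn2, Serpina3n and Fgb) against 6.85% of all promoters, and the STAT letters in 1 of 8 (Fgb) against 8.3%. The Fgb promoter was the one that held 3 of the 4 motifs, as 0.207% of all promoters do with at least 3. The NF-kB letters were in none of the 8 and in 4.26% of all promoters, which says only that these letters are absent from these windows. Of the control promoters, that of Alb held the C/EBP letters and that of Apoa1 held none of the 4 motifs. A match is a string of letters and not a measured binding site.

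**Figure D1:**
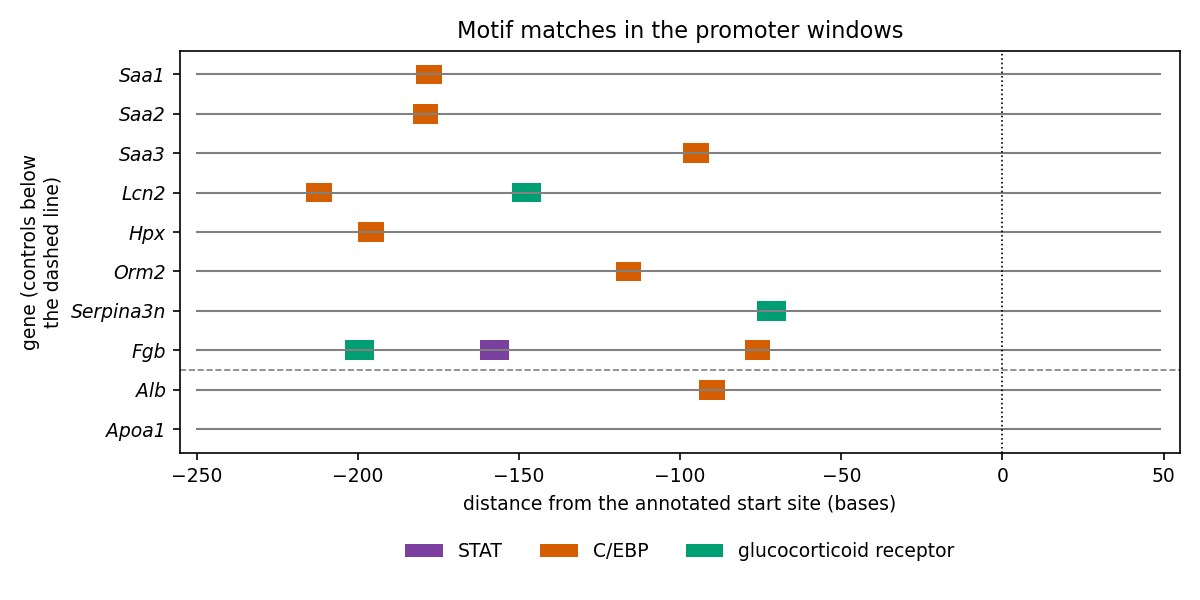
Positions of the motif matches (colored boxes) in the RefSeq promoter windows of 8 acute phase genes and of the controls Alb and Apoa1, with the distance from the annotated start site in bases on the horizontal axis. A C/EBP match is drawn in 7 of the 8 acute phase promoters and in that of Alb, and Fgb has 3 kinds of match.

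Values of the 4 libraries always follow the order E(-)T(-), E(+)T(-), E(-)T(+), E(+)T(+). Levels are given as the normalized read count, the deposited value taken back from the log2 scale, and where counts were low also as whole reads, rebuilt from the steps of the deposited values. The libraries held 10647552 to 13226137 reads, and 3 reads, the floor used here, were 2.27e-05% to 2.82e-05% of a library. Differences are between log2 values, each of a normalized read count with 1 added, in the first library minus the second, and the 95% interval given with them is that of the ratio of scaled reads. The intervals and floors cover counting error only. Since each group has a single library, no difference has a replicate check, no p-value is given, and differences between animals cannot be told apart from those between groups. A gene was counted as higher or lower at a difference of 2-fold or more, with 4 or more normalized reads in either library. The study names the same 2-fold change and read count of 4, but not which library must reach it. It reports fewer changed muscle genes for exercise than the rule used here calls. Shares of all genes are of those meeting this minimum level, whereas counts for a list are out of all its genes. All 14 skeletal muscle markers had reads in every library.

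Saa1 and Saa2 had at most 3 reads without a tumor and 38 to 848 reads with one. Saa4 of the same cluster, given after its values were seen, had 2, 0, 3 and 0 reads in library order. Saa1, a major serum amyloid A of the blood, had 3 reads in E(-)T(-), 0 in E(+)T(-), 848 in E(-)T(+) and 191 in E(+)T(+). Saa2, its neighbour with almost the same promoter, had 0, 2, 355 and 38 reads in that order. Both libraries of tumor-bearing mice were thus above both libraries of healthy mice, and cancer control was the highest for each gene. Against normal control, the ratio of scaled Saa1 reads in cancer control was 284.6 (log2 interval 6.60 to 10.43), and Saa2 was at least 119.1-fold higher, taken against a floor of 3 reads in the library without any. In exercised mice, Saa1 was at least 85.1-fold higher with a tumor than without, and the ratio for Saa2 was 25.4 (log2 interval 2.71 to 7.76). Cancer exercise had less of both than cancer control, by a log2 difference of -2.13 for Saa1 (-2.37 to -1.91) and -3.17 for Saa2 (-3.73 to -2.72). The difference was unequal between them, and there were 2.39 Saa1 reads per Saa2 read in cancer control (interval 2.11 to 2.71) and 5.03 (3.53 to 7.32) in cancer exercise. Between the libraries without a tumor, both genes were at or under the floor and no fold is given. No 75-base window in the last 400 bases of the Saa1, Saa2 or Saa3 transcripts occurred in a transcript of another gene, so that whole reads of that length matching there can be assigned to 1 of them.

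Saa3, the serum amyloid A made by macrophages, fat and epithelia as well as liver, behaved in the same direction from a higher start. Its normalized read count was 113.9 in E(-)T(-), 57.4 in E(+)T(-), 1408 in E(-)T(+) and 375.9 in E(+)T(+). The order was therefore cancer control, cancer exercise, normal control, normal exercise, and each step was beyond counting error. With a tumor Saa3 was higher by a log2 difference of 3.62 without exercise (3.34 to 3.93) and 2.69 with it (2.33 to 3.10). With exercise it was -1.90 (-2.08 to -1.73) in tumor-bearing mice and -0.98 (-1.44 to -0.54) in healthy mice, the latter just short of 2-fold. There were 1.55 Saa3 reads per Saa1 read in cancer control and 1.82 in cancer exercise, with intervals of 1.42 to 1.69 and 1.52 to 2.18, and 35.7 (11.9 to 175.7) in normal control, where Saa1 rested on 3 reads.

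Lcn2, which encodes the siderophore-binding lipocalin 2, was the one acute phase gene with opposite calls for exercise. Its normalized read count was 5.37 in E(-)T(-), 26.6 in E(+)T(-), 1434 in E(-)T(+) and 669.5 in E(+)T(+), from 5, 33, 1339 and 618 reads. Exercise went with a higher level in healthy mice, by 2.11 (0.96 to 4.05), and with a lower level in tumor-bearing mice, by -1.10 (-1.24 to -0.96). The tumor differences were larger than either, 7.82 (6.85 to 9.70) without exercise and 4.60 (4.14 to 5.20) with it. Lcn2 is also a granule protein of neutrophils, so the other markers of that cell are set beside it. S100a8, a neutrophil calcium-binding protein, had 16, 88, 1918 and 885 reads in these 4 libraries, with the fall from cancer control to cancer exercise seen for Lcn2. Its partner S100a9 had 47, 93, 415 and 642 reads, Retnlg had 0, 3, 92 and 175 and the collagenase gene Mmp8 had 1, 2, 35 and 98, so that these were higher in cancer exercise. There were 0.312 Lcn2 reads per S100a8 read in E(-)T(-) (0.0895 to 0.893), 0.375 in E(+)T(-) (0.243 to 0.565), 0.698 in E(-)T(+) (0.651 to 0.749) and 0.698 in E(+)T(+) (0.629 to 0.775). The ratio to S100a8 was thus alike in both libraries with a tumor, whereas that to S100a9 was 3.23 (2.89 to 3.61) in cancer control and 0.963 (0.861 to 1.08) in cancer exercise. The 12 neutrophil markers other than Lcn2 summed to a normalized read count of 109.9, 206.1, 2752 and 2060. Of these 12, 6, 7, 9 and 9 had reads. With a tumor and no exercise, 8 of the 12 were called higher and 0 lower, beside 20.9% and 24.2% of all genes tested, and with exercise in tumor-bearing mice 2 were higher and 3 lower, beside 15.6% and 15.1%. The minimum level was met by 9 and 10 of the 12 in these comparisons. The granule genes Elane and Mpo were at 0 reads in every library, except for 4 Mpo reads in normal exercise. Elane and Mpo were named after their values were seen. The part of neutrophils in the Lcn2 result was not tested, and in a bulk sample more cells of a type and more RNA per cell cannot be told apart.

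**Figure D2:**
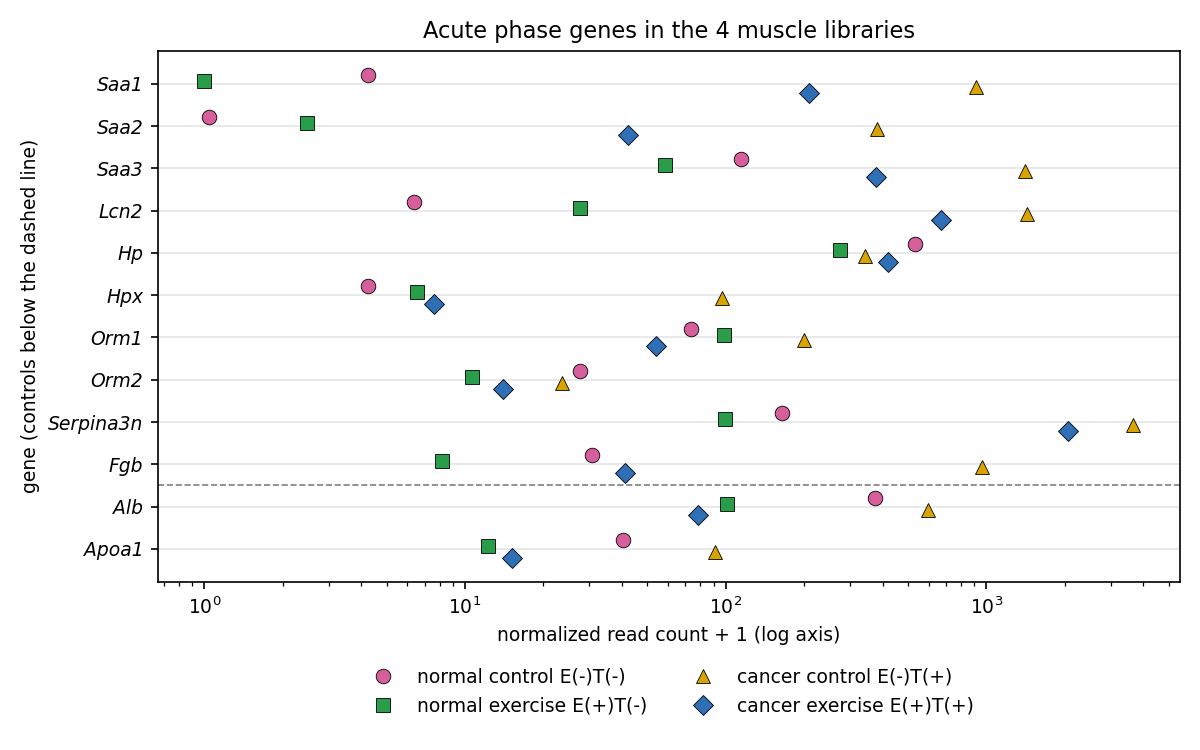
Normalized read count plus 1 (horizontal axis, log scale) of the 10 acute phase genes and, below the dashed line, the liver RNA controls Alb and Apoa1, with 1 symbol per library and no error bars because each group had 1 library. Saa1, Saa2, Saa3, Lcn2, Serpina3n and Fgb have both libraries with a tumor to the right of both without, while the symbols of Hp lie between 273.2 and 529.8 in normalized read count.

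Haptoglobin and hemopexin, the scavengers of hemoglobin and heme, did not move together. Hp had a normalized read count of 529.8 in E(-)T(-), 273.2 in E(+)T(-), 340.6 in E(-)T(+) and 418.1 in E(+)T(+). It was the gene of the 10 with no call in any comparison, and normal control, not a library with a tumor, was the highest. Its log2 difference with a tumor was -0.64 (-0.84 to -0.43) without exercise and 0.61 (0.40 to 0.83) with it, opposite in sign and beyond counting error in each. With exercise it was -0.95 (-1.16 to -0.75) in healthy mice and 0.29 (0.08 to 0.51) in tumor-bearing mice. Fat cells transcribe Hp, and the adipocyte hormone gene Adipoq had its highest and lowest levels in normal control and cancer control, with normalized read counts of 1939, 752.8, 604.1 and 1122 in library order. There were 0.273 Hp reads per Adipoq read in E(-)T(-) (0.247 to 0.302), 0.363 in E(+)T(-) (0.319 to 0.411), 0.564 in E(-)T(+) (0.49 to 0.648) and 0.373 in E(+)T(+) (0.331 to 0.419). Per Adipoq read, Hp was therefore highest in cancer control. All 12 adipocyte markers had reads in the libraries without a tumor and 11 in those with one, where Lep, the leptin gene, was at 0. Their summed normalized read count was 44450, 24254, 17691 and 33379, and the part of fat in the Hp result was not tested.

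Hpx rested on few reads outside cancer control. It had 3 reads in E(-)T(-), 7 in E(+)T(-), 90 in E(-)T(+) and 6 in E(+)T(+). Cancer control stood above the other libraries, among which no pair differed beyond counting error. The ratio of scaled reads between cancer control and normal control was 30.2 (log2 interval 3.32 to 7.22), and the difference between cancer exercise and cancer control was -3.68 (-5.37 to -2.71). With a tumor in exercised mice the difference was 0.22 (-1.65 to 1.99), an interval that holds both a fall and a rise of more than 2-fold. Among the red cell genes, whose product these scavengers take up, Hba-a1, an alpha globin, had normalized read counts of 163734, 36737, 150353 and 303428. Hp and all 9 red cell genes in the table were lower with exercise in healthy mice. They were all higher with exercise in tumor-bearing mice and with a tumor in exercised mice. With a tumor and no exercise, where Hp was lower, 5 of the 9 were higher and 4 lower, Hba-a1 among the latter, with a median log2 difference of 0.06. The summed red cell genes were highest in cancer exercise, whereas Hp was highest in normal control. The part of red cells in the Hp result was not tested.

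The orosomucoids, carriers of small molecules in plasma, had with Hp the smallest of the 10 tumor differences without exercise. Orm1 had a normalized read count of 72.4 in E(-)T(-), 97.2 in E(+)T(-), 198.1 in E(-)T(+) and 53.1 in E(+)T(+). Cancer control was the highest and the other libraries lay within 2-fold of each other. The difference with a tumor was 1.44 (1.05 to 1.88) without exercise and -0.86 (-1.38 to -0.38) with it, and that with exercise in tumor-bearing mice was -1.88 (-2.39 to -1.44). Orm2 had 25, 12, 21 and 12 reads in library order, and no pair of its libraries differed beyond counting error except normal exercise from normal control, with -1.38 (-2.58 to -0.40), and normal exercise from cancer control. Of the 75-base windows in the last 400 bases of the Orm1 transcript, 29.8% occurred exactly in a transcript of another gene, each time Orm2, and 30.1% of those of Orm2 occurred in Orm1 or Orm3. How the authors' counting dealt with reads that match several genes is not stated, so the split of reads between Orm1 and Orm2 is uncertain.

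Serpina3n, a secreted inhibitor of serine proteases, was higher with a tumor both with and without exercise. Its normalized read count was 162.8 in E(-)T(-), 98.7 in E(+)T(-), 3662 in E(-)T(+) and 2054 in E(+)T(+). Both libraries with a tumor were above both without, by 4.48 (4.26 to 4.74) without exercise and 4.37 (4.11 to 4.65) with it. With exercise it was -0.83 (-0.92 to -0.75) in tumor-bearing mice and -0.72 (-1.07 to -0.37) in healthy mice, short of 2-fold in each. In the Serpina3 cluster on the same chromosome, the liver gene Serpina3k had 64, 5, 235 and 30 reads and Serpina3h had 1, 4, 67 and 126 reads. Serpina3n reads per Serpina3k read were 2.39 (1.77 to 3.25), 24.4 (10.2 to 76.5), 14.6 (12.7 to 16.7) and 63.2 (44.1 to 94) in library order, so that the genes of the cluster did not keep a common proportion. None of the 75-base windows in the last 400 bases of the Serpina3n transcript was found in another gene. Of the other 10 genes of the cluster, 4 were called higher and 0 lower with a tumor without exercise, 6 higher and 0 lower with it, 0 higher and 3 lower with exercise in healthy mice, and 1 higher and 3 lower with exercise in tumor-bearing mice. The shares of all genes called higher and lower were, in that order, 20.9% and 24.2%, 13.9% and 16.3%, 9.44% and 12.1%, and 15.6% and 15.1%. The minimum level was met by 5, 6, 3 and 6 of the 10 genes.

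Fgb, the gene of the fibrinogen beta chain, had the largest of the 10 differences with exercise in tumor-bearing mice. Its normalized read count was 29.8 in E(-)T(-), 7.14 in E(+)T(-), 959.1 in E(-)T(+) and 40.2 in E(+)T(+). Cancer control stood apart, and normal control and cancer exercise did not differ beyond counting error. The difference with a tumor was 4.96 (4.47 to 5.61) without exercise and 2.34 (1.38 to 3.69) with it. With exercise it was -4.54 (-5.10 to -4.11) in tumor-bearing mice and -1.92 (-3.30 to -0.90) in healthy mice, where it rested on 28 and 9 reads. The other fibrinogen chains were named after their values were seen. Fgg had 18, 0, 199 and 19 reads and Fga had 0, 0, 8 and 1. There were 4.5 Fgb reads per Fgg read in cancer control (3.86 to 5.28) and 1.95 (1.09 to 3.58) in cancer exercise.

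Counted over the 10 genes, the tumor went with higher levels and exercise in tumor-bearing mice with lower ones. With a tumor and no exercise, 8 of 10 were called higher, all but Hp and Orm2, and 0 lower, where 20.9% of the 14818 genes tested were higher and 24.2% were lower. With exercise in tumor-bearing mice, 7 of 10 were called lower, all but Hp, Orm2 and Serpina3n, and 0 higher, where 15.1% of 14491 genes were lower and 15.6% higher. Cancer control is the library common to these comparisons, so its own values raise one set of differences where they lower the other. With a tumor in exercised mice, 6 of 10 were called higher (Saa1, Saa2, Saa3, Lcn2, Serpina3n and Fgb) and 0 lower, against 13.9% and 16.3% of 14470 genes. With exercise in healthy mice, 1 (Lcn2) was higher and 2 (Orm2 and Fgb) were lower, against 9.44% and 12.1% of 14518 genes, and the rest were below 2-fold or, for Saa1 and Saa2, below the minimum level. The median log2 difference over the 10 genes was 4.50, -1.89, 2.51 and -0.83 in these comparisons, in the order given, beside -0.04, 0.01, -0.03 and -0.01 over the genes tested. With the genes at 0 reads set to their bound, the last median was -0.55 and the others were the same. The members were chosen with these libraries in view, and nothing beyond a description can be read from these counts.

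**Figure D3:**
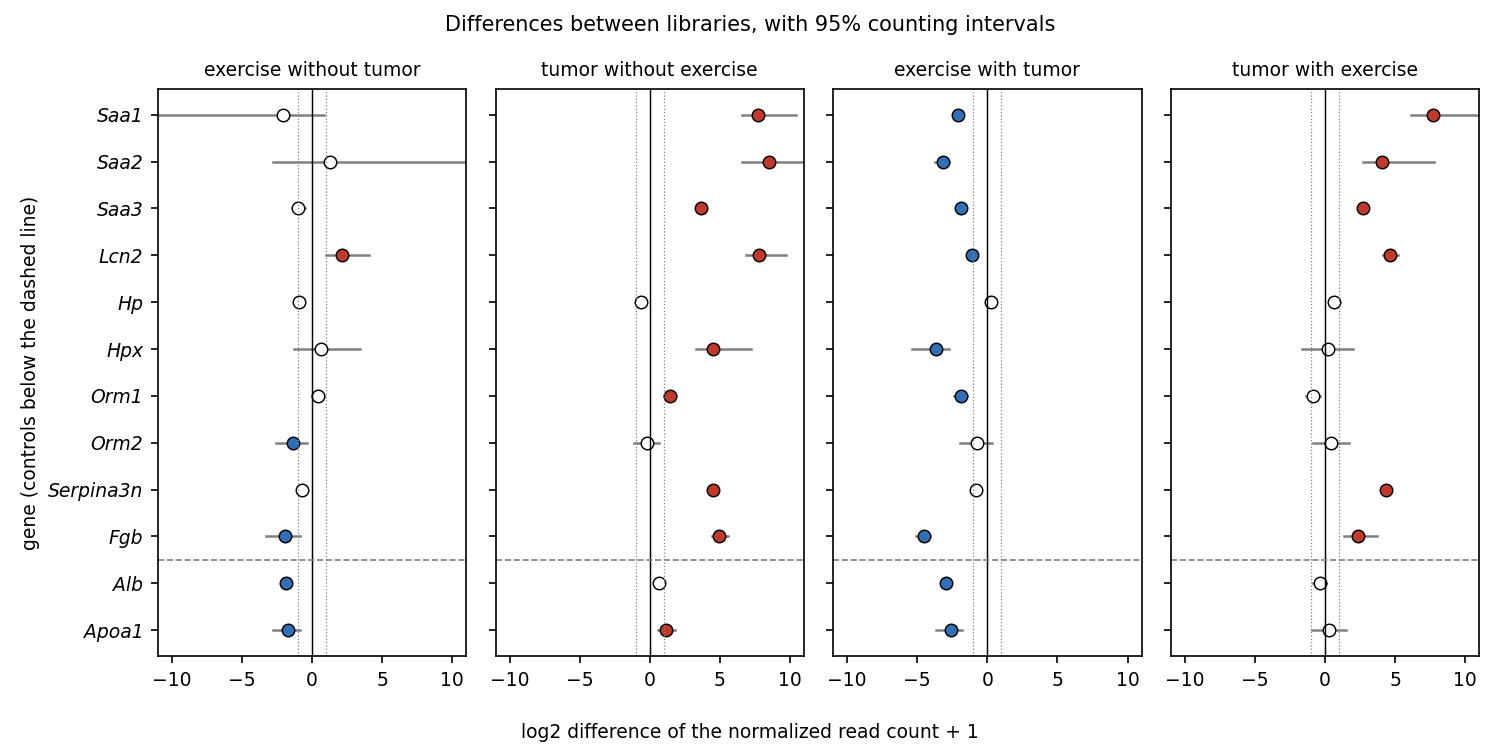
Log2 difference of the normalized read count plus 1 (horizontal axis) for the 10 acute phase genes and, below the dashed line, Alb and Apoa1, in the 4 comparisons, with grey bars for the 95% counting interval of the ratio, running out of the panel where 1 library had 0 reads. Red points were called higher and blue points lower at 2-fold (dotted lines), open points were not called, and 8 of the 10 genes are red in the comparison of the tumor without exercise.

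RNA of liver origin was examined through Alb and Apoa1, genes expressed chiefly by hepatocytes or, for Apoa1, by hepatocytes and intestine. Alb had a normalized read count of 373.3 in E(-)T(-), 100.3 in E(+)T(-), 594.1 in E(-)T(+) and 77 in E(+)T(+), and Apoa1 had 39.4, 11.2, 89.8 and 14.1. Both had reads in every library, were highest in cancer control and were lower with exercise. With a tumor Alb was 0.67 (0.48 to 0.87) without exercise and -0.38 (-0.83 to 0.05) with it. With exercise it was -1.88 (-2.20 to -1.59) in healthy and -2.93 (-3.33 to -2.59) in tumor-bearing mice. Apoa1 was called higher with a tumor without exercise, by 1.17 (0.62 to 1.79), and gave 0.31 (-0.90 to 1.51) with it, and its exercise differences were -1.73 (-2.80 to -0.87) and -2.58 (-3.64 to -1.82). In the comparison of exercise with a tumor, the difference for Alb was thus larger in size than that for Saa1, Saa3, Lcn2, Orm1 and Serpina3n and smaller than that for Saa2, Fgb and Hpx. Of the last 3, only Fgb had an interval (-5.10 to -4.11) apart from that of Alb. The intervals of Saa2 (-3.73 to -2.72) and Hpx (-5.37 to -2.71) overlapped it. The 28 other negative acute phase and hepatocyte genes summed to a normalized read count of 3525, 856.5, 2072 and 1829. Cyp2e1 and Trf, the transferrin gene, made up much of this sum, with 1503 and 1059 in E(-)T(-) and 1022 and 519.9 in E(+)T(+). Over those of the 28 with reads, the median log2 difference with exercise in tumor-bearing mice was -2.48. It was -1.68 with genes at 0 reads set to their bound. Reads were found for 23, 19, 23 and 16 of the 28 in library order. Among them Gc, the vitamin D binding protein, had 47, 11, 109 and 0 reads, and Tat, a tyrosine aminotransferase induced by glucocorticoids, had 0, 0, 49 and 0. Cyp2e1, a liver enzyme also present in fat, had 1414, 83, 390 and 944 reads. The 28 genes included 14 called higher and 7 lower with a tumor without exercise, the latter near the background of 24.2% and the former beside 20.9%, and 8 higher and 6 lower with a tumor in exercised mice, beside 13.9% and 16.3%. With exercise, 3 were higher and 18 lower in tumor-bearing mice, beside 15.6% and 15.1%, and 0 higher and 15 lower in healthy mice, beside 9.44% and 12.1%. The minimum level was met by 24, 19, 24 and 19 of the 28, in the order of these comparisons. The part of liver RNA in the acute phase results was not tested.

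Because a read of Alb is counted in the same library as a read of any other gene, their ratio is free of the scaling between libraries. Albumin is itself among the proteins that go down in the acute phase response, so the ratio is not a correction for liver RNA. For Serpina3n there were 0.436 reads per Alb read in E(-)T(-) (0.358 to 0.529), 0.984 in E(+)T(-) (0.76 to 1.27), 6.16 in E(-)T(+) (5.63 to 6.75) and 26.7 in E(+)T(+) (21.1 to 34.4). For Lcn2 the ratios were 0.0142 (0.0046 to 0.0336), 0.266 (0.176 to 0.393), 2.41 (2.18 to 2.67) and 8.7 (6.8 to 11.3). Saa3 gave 0.305 (0.243 to 0.38), 0.573 (0.422 to 0.773), 2.37 (2.14 to 2.62) and 4.89 (3.78 to 6.4). In these 3 genes the ratio was highest in cancer exercise, whereas their own levels were highest in cancer control. Saa1 had 1.53 (1.37 to 1.7) in cancer control and 2.69 (2.04 to 3.58) in cancer exercise, and in Saa2 the intervals of 0.64 (0.558 to 0.732) and 0.535 (0.351 to 0.805) overlapped. Fgb went the other way, with 0.0798 (0.0522 to 0.117), 0.0726 (0.0324 to 0.142), 1.61 (1.45 to 1.8) and 0.521 (0.34 to 0.786). Hpx had 0.162 (0.128 to 0.203) in cancer control and 0.0845 (0.03 to 0.193) in cancer exercise, and Apoa1 kept overlapping intervals in all libraries, from 0.105 (0.073 to 0.148) in normal control to 0.183 (0.093 to 0.334) in cancer exercise. Hp had its lowest ratio in cancer control, 0.573 (0.498 to 0.659), and its highest in cancer exercise, 5.44 (4.21 to 7.11). Orm1 was highest in normal exercise, with 0.194 (0.147 to 0.252), 0.968 (0.747 to 1.25), 0.333 (0.281 to 0.394) and 0.69 (0.47 to 1.01), and Orm2 ranged from 0.0378 (0.0232 to 0.0584) in cancer control to 0.169 (0.0834 to 0.314) in cancer exercise.

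**Figure D4:**
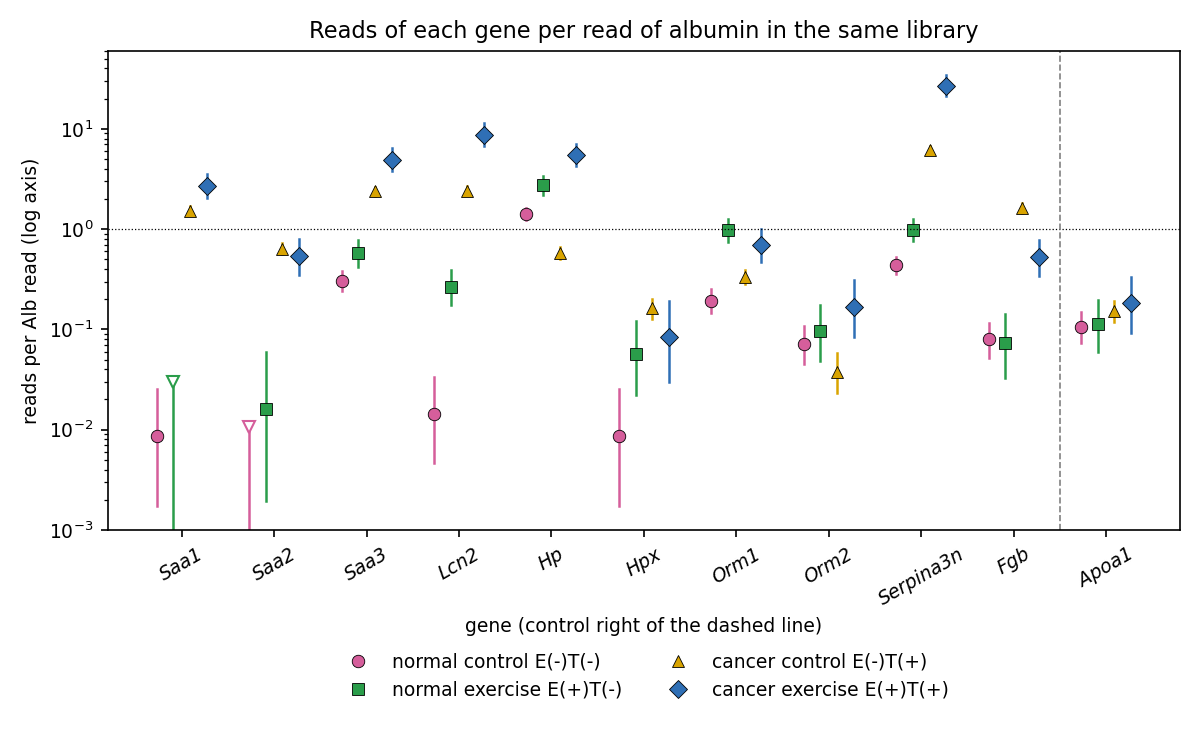
Reads per Alb read in the same library (vertical axis, log scale) for the 10 acute phase genes and, right of the dashed line, Apoa1, with bars for the 95% Clopper-Pearson interval and open triangles at the upper limit where the gene had 0 reads. Serpina3n, Lcn2 and Saa3 are highest in cancer exercise, with 26.7, 8.7 and 4.89 reads per Alb read, while Fgb is highest in cancer control with 1.61.

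The 30 other positive acute phase genes on the list included the metallothioneins, Serping1, Hamp2, C3 and Lbp. Of the 30, 19 were called higher and 1 lower with a tumor without exercise, 13 higher and 2 lower with a tumor in exercised mice, 2 higher and 11 lower with exercise in tumor-bearing mice, and 3 higher and 4 lower with exercise in healthy mice. Over all genes the shares called higher and lower in these comparisons were 20.9% and 24.2%, 13.9% and 16.3%, 15.6% and 15.1%, and 9.44% and 12.1%. The minimum level was met by 26, 25, 27 and 21 of the 30, so the counts for exercise in healthy mice were only a little above those shares. The median log2 differences of the 30, over those with reads, were 1.92, 1.29, -0.84 and -0.40, or 1.74, 0.83, -0.74 and -0.39 with genes at 0 reads set to their bound. Mt1, a metal-binding protein induced by glucocorticoids and zinc, had a normalized read count of 1293 in E(-)T(-), 1383 in E(+)T(-), 151924 in E(-)T(+) and 94760 in E(+)T(+), and so stood higher with a tumor like Serpina3n. Lbp, which binds bacterial lipopolysaccharide, had 409.4, 217.9, 1215 and 701.8. Hamp2, a hepcidin, had 52.2, 1930, 5366 and 1990 and was thus higher in normal exercise than in normal control. C3, the central complement protein, had 1649, 1241, 1050 and 1207 and was called in no comparison, and the same held for Serping1, the C1 inhibitor.

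Genes of the signals that act upstream of the acute phase genes were on a list of 32. Of these, 16 were called higher and 1 lower with a tumor without exercise, beside 20.9% and 24.2% of all genes, and 11 higher and 3 lower with a tumor in exercised mice, beside 13.9% and 16.3%. With exercise, 0 were higher and 6 lower in tumor-bearing mice, the latter near the background of 15.1%, and 2 were higher and 0 lower in healthy mice, beside 9.44% and 12.1%. The minimum level was met by 28 of the 32 in each comparison. Cebpd, the C/EBP delta factor, had a normalized read count of 628.5 in E(-)T(-), 480.7 in E(+)T(-), 7648 in E(-)T(+) and 4281 in E(+)T(+), the same order of libraries as Serpina3n and Saa3 except that its values without a tumor were closer together. Stat3, which carries the interleukin-6 signal, had 1301, 1949, 4743 and 2597. Fkbp5, a target of the glucocorticoid receptor, had 561.6, 289.2, 3501 and 3417, nearly equal in both libraries with a tumor. Nfkbia, the NF-kB inhibitor that NF-kB itself induces, had 1481, 1595, 6413 and 4362. The cytokine genes were scarce. Il1b had 0, 21, 54 and 5 reads, and Il6, named after its values were seen, had 0, 0, 3 and 0 reads, at the floor.

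Receptors and clearance partners of the proteins made up a list of 21 genes, of which 7 were called higher and 1 lower with a tumor without exercise, 8 higher and 2 lower with a tumor in exercised mice, 1 higher and 3 lower with exercise in tumor-bearing mice, and 2 higher and 1 lower with exercise in healthy mice. The shares of all genes called higher and lower were, in the same order, 20.9% and 24.2%, 13.9% and 16.3%, 15.6% and 15.1%, and 9.44% and 12.1%, so that several of these counts were near the background. The minimum level was met by 18, 19, 18 and 17 of the 21. Cd163, the macrophage receptor for haptoglobin with hemoglobin, had a normalized read count of 304.3 in E(-)T(-), 281.1 in E(+)T(-), 613.8 in E(-)T(+) and 845.9 in E(+)T(+). Hmox1, which breaks down the heme that hemopexin delivers, had 23.5, 28.2, 238.7 and 74.7, an order with cancer control first as for Hpx. Fpr2, a receptor for serum amyloid A on myeloid cells, had 4, 13, 47 and 43 reads. Lrp1, the receptor for hemopexin with heme, had 1068, 1183, 1048 and 954.4 and was called in no comparison.

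Lists of markers of other cells that a dissected muscle can hold differed in which library was highest. The 15 keratinocyte markers in the table summed to a normalized read count of 332.0 in E(-)T(-), 284.8 in E(+)T(-), 1141 in E(-)T(+) and 121.9 in E(+)T(+), and 7, 6, 14 and 5 of them had reads. Flg2 and Lce1m, proteins of the cornified skin, had 148 and 71 reads in cancer control and 0 in every other library. Cancer control is also the library with the highest level of 8 of the 10 acute phase genes, and Saa3 and Lcn2 are among the genes that skin can express, so the values stand beside those results, in which the part of skin was not tested. The 10 epithelial markers summed to 72.4, 67.7, 148.4 and 56.4. The 14 macrophage and monocyte markers summed to 4777, 4679, 7957 and 7623, and among them Cd68 had 92.6, 94.7, 1024 and 319.5, in the order seen for Saa3 with a tumor, while Csf1r had 848.8, 1003, 525.8 and 786.4. Fibroblast markers (12 genes) summed to 125909, 76569, 48910 and 55968 and endothelial markers (12 genes) to 5086, 6811, 6131 and 6886. Red cell genes (9 in the table) summed to 311692, 62845, 300828 and 656973, and skeletal muscle markers (14) to 2128252, 1741134, 1192229 and 1365353.

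**Figure D5:**
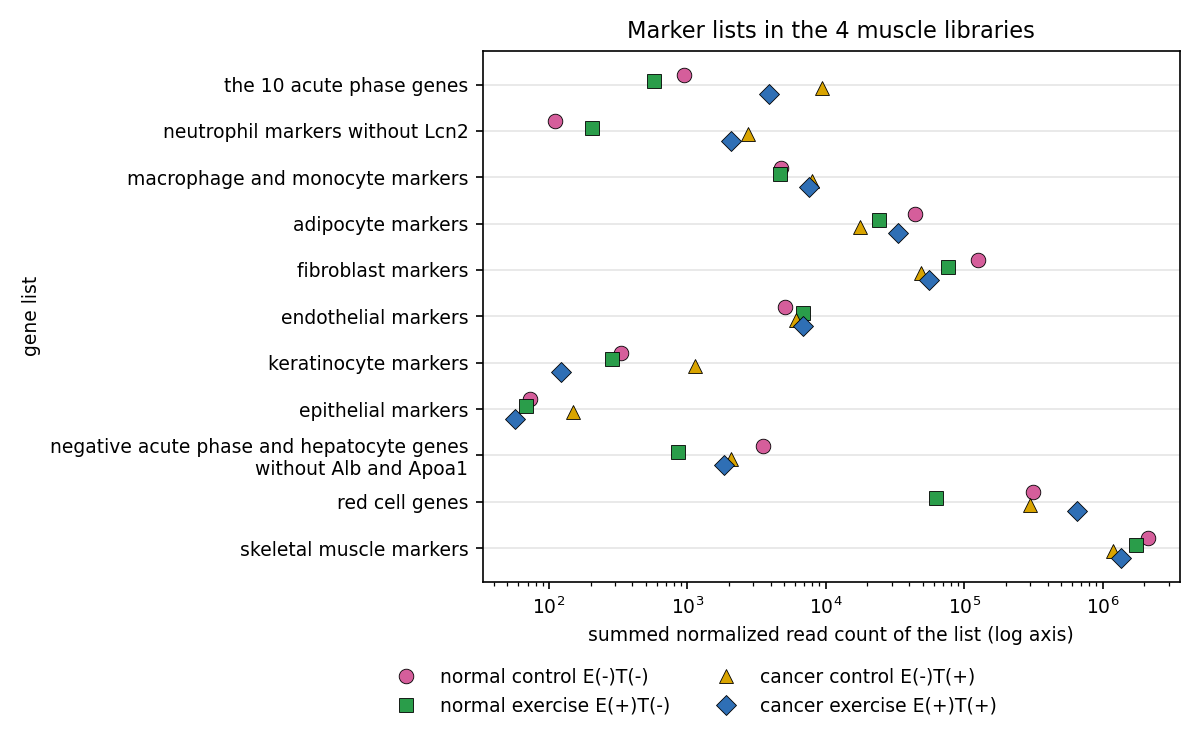
Summed normalized read count (horizontal axis, log scale) of the 10 acute phase genes and of 10 lists of marker genes, with 1 symbol per library, set slightly apart in height where they would overlap. The acute phase genes sum to 947.2, 576.9, 9408 and 3879, and cancer control also has the highest sum for the neutrophil, macrophage, keratinocyte and epithelial lists. In the neutrophil sum, S100a8 alone holds 2054 of 2752 in cancer control and 958.4 of 2060 in cancer exercise. Of the 14 macrophage and monocyte markers, 8 were higher and 6 lower in cancer exercise than in cancer control.

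Among the other genes of the table, likeness was measured as the mean absolute distance between a gene's 3 log2 differences from normal control and the median of the 10 acute phase genes, which was -0.83 in E(+)T(-), 4.50 in E(-)T(+) and 1.27 in E(+)T(+). Among genes reaching 16 normalized reads in some library, the nearest was Hdc, the histidine decarboxylase that makes histamine, at a distance of 0.22 and with 14, 9, 269 and 30 reads. The 7 that followed were Gzmg, Adora3, Ccnb2, Ggn, Gzmc, Slpi and Fcrl6, at 0.329 to 0.485. Slpi, an inhibitor of neutrophil elastase, had 10, 15, 211 and 29 reads, and the other 6 had at most 1 read in each library without a tumor. Of the 10 acute phase genes, Saa3 was closest to their own median at 0.488 and Lcn2 farthest at 3.9.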

How the data were processed

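Gene expression in gastrocnemius muscle was measured in 4 QuantSeq libraries, grouped by the sample titles. RNA was extracted with TRIzol. According to the methods and the submitters' processing notes, the authors aligned the reads with Bowtie2 to mm10, counted them by Bedtools coverage, then normalized the counts by quantiles using edgeR. Which annotation was used, and how strand and reads matching several genes were handled, is not given in the sources used here. Each of the 23282 deposited rows (23238 symbols) holds, on the log2 scale, a normalized read count with 1 added.

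Whole reads were rebuilt from the steps of the deposited log2 values with a negative binomial model of the quantile adjustment (1 scaling factor per library, fitted dispersion 0.339). It matched 100% of the values within 0.0006, and 94.9% to 96.2% of the values per library were tied to 1 read count. The model was tested on simulated data. Intervals are 95% Clopper-Pearson intervals of read shares, turned into ratios. Fold changes use a pseudocount of 1, which understates those of low genes.

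The members, gene lists and comparisons were chosen with earlier results of these data known. Genes named besides the members and controls are, for each list, up to 6 with the highest mean level and up to 4 of the others with the largest called difference, and the 8 genes most like the median member. Elane, Mpo, Il6, Fgg, Fga and the values of Saa4 fall outside this rule and were added after their values were seen. Alternatives were a pseudocount of 4, a pseudocount of 0 with counts under 3 reads raised to 3, scaling by total reads, median of ratios scaling, a minimum of 16 or none, and a 4-fold threshold. Analyses used Python 3.11.15, numpy 2.4.6, scipy 1.17.1 and Biopython 1.88.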

Additional observations from a re-analysis of the deposited data

Results flagged for a closer look

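Lcn2 was at least 2-fold higher with exercise in healthy mice and at least 2-fold lower with exercise in tumor-bearing mice. The log2 exercise difference with a tumor minus that without was -3.21. It compares 2 pairs of single libraries, and was not tested.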

How the results depend on the processing

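Of 56 recomputed counts of acute phase genes, 52 stayed within 1.5 times the reported count. Without a minimum level, 2 genes rather than 1 were higher with exercise in healthy mice. At 4-fold, 0 rather than 2 were lower there and 4 rather than 7 were lower with exercise in tumor-bearing mice. Under scaling by total reads, 1 rather than 0 was lower with a tumor in exercised mice. Of 160 recomputed log2 differences of single genes, 158 stayed within the counting interval, and with a pseudocount of 4 Saa2 (tumor without exercise) gave 6.57 and Saa1 (tumor with exercise) gave 5.72. None of the called differences turned its sign under these settings. That scaling moved the median of all genes to 0.15 with exercise in healthy mice and to -0.19 with a tumor in exercised mice. No paired analysis was possible because each group had 1 library. Saa1, Saa2, Lcn2 and Hpx in healthy mice, and Hpx in cancer exercise, are limited by counts of a few reads.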
